A study of Homo sapiens with 4 samples.

Results

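The 14-3-3 proteins were described in SH-SY5Y cells after a knockdown of LSD1. The 7 genes of the family, out of 19775 named on the array, are YWHAE (epsilon), YWHAB (beta), YWHAG (gamma), YWHAH (eta), YWHAQ (theta), YWHAZ (zeta) and SFN (sigma). All probe sets that the array's annotation gives to 1 of these genes and to no other gene were kept, which gave 20 of the 54675 probe sets on the array. The family was chosen by the signal of a YWHAE probe set, which was higher on the siLSD1 arrays. The comparison of siLSD1 with siControl is therefore a description for these genes, and no test of it is used as support.

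SH-SY5Y is a human neuroblastoma line of neuronal character. The siLSD1 group (2 arrays) received a short interfering RNA (siRNA) that targets LSD1, the histone lysine demethylase encoded by KDM1A, and the siControl group (2 arrays) received a control siRNA. The design text describes separate transfections within each group, so the spread between arrays is that between transfections of 1 line. The labels state neither the time after transfection nor the siRNA sequences. One siLSD1 title gives its target as LSD without the number, and that array was placed by this title.

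The 14-3-3 proteins form dimers that dock onto short phosphorylated motifs of other proteins. By docking they hold a client in the cytoplasm, shield its phosphate, or change its activity. The YWHA symbols refer to the activation of tyrosine and tryptophan monooxygenases, the first enzymes of catecholamine and serotonin synthesis, and the family is abundant in brain. Its isoforms are close paralogs, so their clients overlap widely.

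The upstream sequences of a pair of members are shown. That of YWHAE is given because the family was chosen through it. SFN is the matched member with the fewest CG dinucleotides in its window. It is an epithelial isoform whose probe set 209260_at lay below the filter on dim signals, while its other 2 passed. Each sequence ends at the base before the annotated start of the gene, reads 5′ to 3′ along the gene's strand, and carries its CG dinucleotides in capitals. The YWHAE window is chr17:1400223-1400472 on the minus strand and the SFN window chr1:26862899-26863148 on the plus strand (RefSeq, GRCh38.p14).
YWHAE: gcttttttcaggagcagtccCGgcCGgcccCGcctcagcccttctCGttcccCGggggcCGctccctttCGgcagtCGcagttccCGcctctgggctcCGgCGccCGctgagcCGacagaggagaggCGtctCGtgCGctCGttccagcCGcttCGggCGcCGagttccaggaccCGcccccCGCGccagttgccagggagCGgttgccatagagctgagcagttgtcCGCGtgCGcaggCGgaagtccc
SFN: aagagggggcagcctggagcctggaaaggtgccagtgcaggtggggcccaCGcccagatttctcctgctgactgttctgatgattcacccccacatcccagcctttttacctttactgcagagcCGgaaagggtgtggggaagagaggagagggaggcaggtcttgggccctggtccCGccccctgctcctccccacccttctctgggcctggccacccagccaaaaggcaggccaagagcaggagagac

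The YWHAE window held 29 CG dinucleotides and the SFN window 3, against a median of 11 in the 35116 upstream windows of the table. YWHAH held 34, YWHAQ 28, YWHAG 23 and YWHAB 21, so that SFN was the 1 window of the 6 matched members with fewer than the median. YWHAZ was not matched. The letters GGGCGG, a GC box, were found on either strand in all 6 windows and in 42.6% of all windows. The letters CGGAAG, the core of ETS factor motifs, were in 4 of the 6 (YWHAE, YWHAB, YWHAG and YWHAQ) and in 16.5% of all windows. The YWHAH window was the 1 of the 6 with TGACGTCA, the cAMP response element, which was in 1.65% of all windows. Of the other motifs searched, CCAAT was in 2 of the 6 windows (YWHAB and YWHAQ) and in 32% of all, CAGGTG, an E-box, in SFN alone and in 17.5% of all, TATAAA in YWHAH alone and in 10.7% of all, and CACGTG in 0 of the 6 and in 6.34% of all. No motif contains another. They were searched on both strands and chosen after the windows had been seen, and a match describes the letters only.

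KDM1A, the target of the siRNA, checked the labels. Its signal was 8.40 and 8.54 on the siLSD1 arrays, against 9.79 and 9.78 on the siControl arrays. The level in siLSD1 cells was 40.1% of the control level, a log2 difference of -1.32 with a 95% interval from -1.70 to -0.94, and the groups did not overlap. KDM1A had the smallest unadjusted p of all probe sets in limma (6.24e-05), but its adjusted p was 0.986. Over all 32768 probe sets tested, limma called 0 higher and 0 lower at an adjusted p under 0.05, which is 0% in either direction. Before adjustment, limma put 630 probe sets (1.92%) higher and 500 (1.53%) lower at a p under 0.05, or 3.45% in all. All signals are on a log2 scale after quantile normalization unless another scale is named, and all differences are siLSD1 minus siControl.

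The arrays differed in ways that touch the members. The array siControl replicate 1 stood apart: the root mean square of its log2 differences from another array was 0.72 to 0.73, against 0.55 to 0.60 between the other 3 arrays. On siLSD1 replicate 2, 5 of the 6 ribosomal RNA control probe sets lay at 10.30 to 11.35, against 5.21 to 8.67 on the other 3 arrays (deposited log2 signals). The 3′ minus 5′ difference of the GAPDH control was 0.30 on that array, against -0.0065 on siLSD1 replicate 1 and -0.03 and 0.0014 on the siControl arrays. For ACTB it was 1.16 on siLSD1 replicate 2, against 0.71 on siLSD1 replicate 1 and 0.70 and 0.54 on the siControl arrays. Of the neuroblastoma markers, 8 of 9 were above the filter on dim probe sets (a mean of 3.26), with STMN2 at 12.10, GATA3 at 11.59 and ELAVL4 at 11.17. TH, the tyrosine hydroxylase that 14-3-3 proteins activate, was not above it. Of markers of other cells, 6 of 7 for fibroblasts, 2 of 6 for epithelium and 2 of 5 for blood were above the filter. Their highest members were COL3A1 at 8.76, EPCAM at 4.27 and HBB at 4.44. The filter lies at the 40th percentile of all probe sets, so passing it does not by itself show that a marker was expressed.

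**Figure D1:**
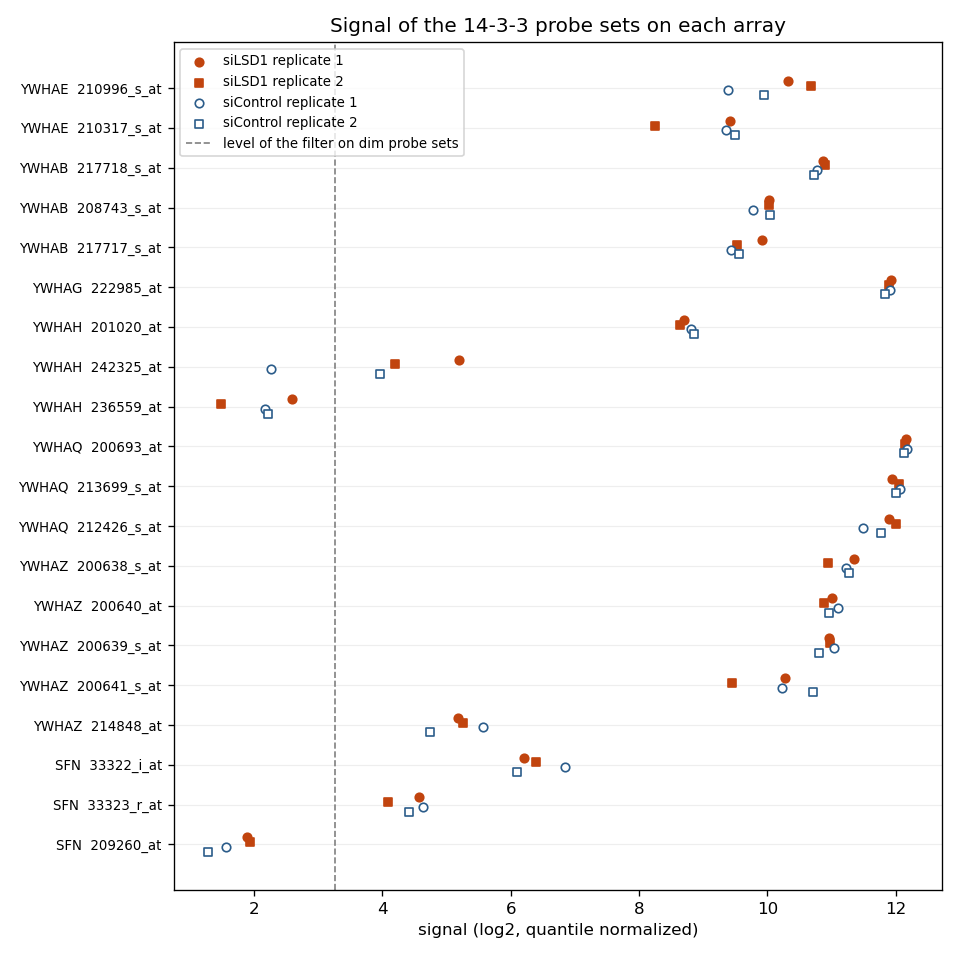
Signal (log2, quantile normalized) of the 20 probe sets of 14-3-3 genes, 1 row per probe set, with filled symbols for the siLSD1 arrays, open symbols for the siControl arrays, circles for replicate 1 and squares for replicate 2. The dashed line is the filter level of 3.26, and 18 of the 20 probe sets have a mean above it; the 4 arrays span more than 1 log2 unit in 5 rows, which are both YWHAE rows, YWHAZ 200641_s_at, YWHAH 242325_at and YWHAH 236559_at, and less in the other 15.

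Of the 20 probe sets, 18 passed the filter, and each of the 7 genes had at least 1 of them. Among the 18, the siLSD1 mean lay above the siControl mean in 9 and below it in 9, as it did for 50.1% and 49.9% of all probe sets tested. The median difference was 0.01, against 0.0010 over all probe sets tested. Under the deposited scaling 7 were higher and 11 lower, and under median centring 15 were higher and 3 lower. Median centring moved the median of all tested probe sets to 0.15. Both siLSD1 arrays lay above both siControl arrays for 4 members (16.7% of all tested probe sets did so), and below them for 1 member (16% of all). The other 13 overlapped. In limma 0 of the 18 passed an adjusted p under 0.05, and 3 were higher at an unadjusted p under 0.05 (1.92% of all probe sets were). These 4 and 3 include YWHAE 210996_s_at, whose signal chose the family, and YWHAH 242325_at, whose siControl mean lay below the filter, so nothing is read from them against the shares of all probe sets. Without the YWHAE probe sets the counts were 3 and 2 of 16, YWHAH 242325_at still among them. In RNA from a culture, fewer cells with a transcript and less of it per cell cannot be told apart.

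YWHAE binds the dynein regulator NDEL1 in migrating neurons and lies in the region deleted in Miller-Dieker lissencephaly. Its probe set 210996_s_at, the value that chose the family, had a signal of 10.32 and 10.68 on the siLSD1 arrays, against 9.38 and 9.95 on the siControl arrays. Both siLSD1 arrays were the higher ones, and siControl replicate 1 was the lowest of the 4. The group means were 10.50 ± 0.26 in siLSD1 cells and 9.67 ± 0.40 in siControl cells (SD, n = 2), a difference of 0.83 with a 95% interval from 0.33 to 1.33, or 1.78-fold. Without siControl replicate 1 the difference was 0.55.

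The other YWHAE probe set, 210317_s_at, did not follow it. Its signal was 9.42 and 8.25 on the siLSD1 arrays, against 9.35 and 9.50 on the siControl arrays. Replicate 2 of siLSD1 was low, and siLSD1 replicate 1 lay between the siControl arrays, so the groups overlapped. The means were 8.83 ± 0.83 in siLSD1 cells and 9.42 ± 0.10 in siControl cells (SD, n = 2), a difference of -0.59 with an interval from -1.40 to 0.22. Without siLSD1 replicate 2 the difference was -0.0070, and without siLSD1 replicate 1 it was -1.17. The array that set this value was the one with the strong ribosomal RNA signal and the largest 3′ to 5′ difference in GAPDH and ACTB, and the part of these in the result was not tested. When both probe sets were averaged, YWHAE had a difference of 0.12.

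The differences of the YWHAE probe sets lay 1.42 apart on the log2 scale. This gap contains the difference by which the family was chosen, so its rank among genes is a description and supports nothing. Of 1288 genes with at least 2 probe sets at a mean signal of 8 or more, 4 had probe sets at least as far apart (0.311%), with YWHAE among them. The other 3, named after their values were seen, were the RNA helicase gene DHX9 (1.82), the tRNA synthetase gene EPRS1 (1.53) and the splicing factor gene SFPQ (1.52). The median gap of the 1288 genes was 0.24, and 53.6% of them had probe sets of both signs, so opposite signs alone were common. Without siLSD1 replicate 2 the YWHAE gap was 0.66, and 118 genes (9.16%) had one as wide. Both YWHAE probe sets are of the type marked _s_at, whose probes match more than 1 transcript, and RefSeq lists 7 YWHAE pseudogenes, so the transcripts behind each value are uncertain.

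**Figure D2:**
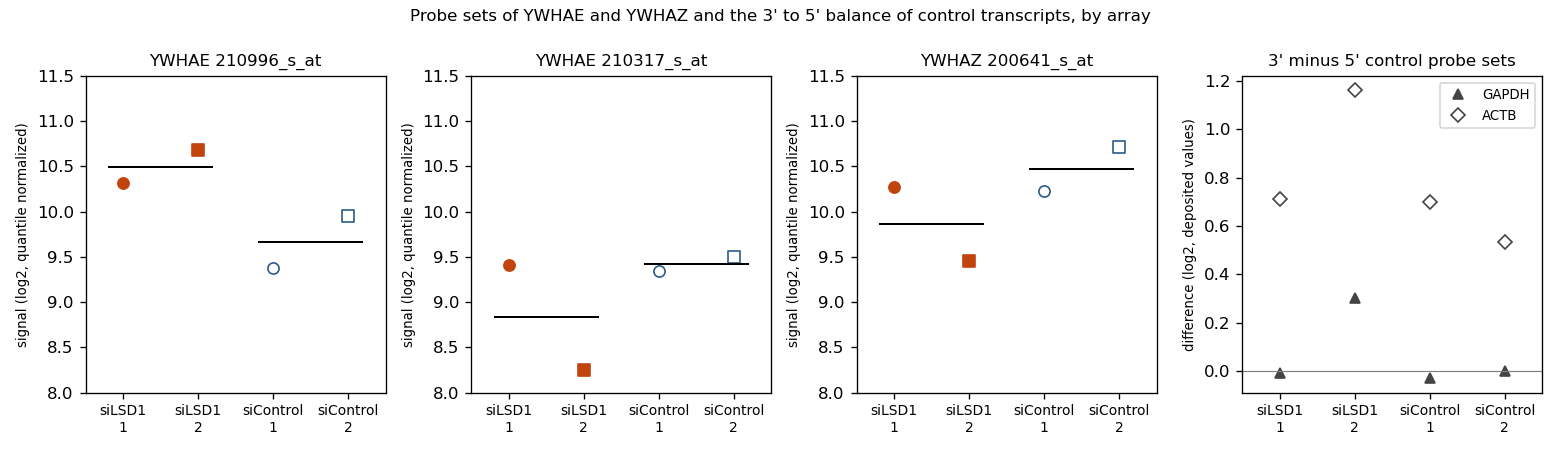
Signal (log2, quantile normalized) of 3 probe sets on each array, with the mean of each group as a bar, and in the right panel the 3′ minus 5′ difference (log2, deposited values) of the control probe sets for GAPDH (triangles) and ACTB (diamonds). YWHAE 210996_s_at is higher on both siLSD1 arrays, whereas YWHAE 210317_s_at and YWHAZ 200641_s_at are lowest on siLSD1 replicate 2, the array with the largest 3′ minus 5′ differences (0.30 for GAPDH and 1.16 for ACTB).

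YWHAZ, an isoform found in most tissues and an early known partner of RAF kinases, had 5 probe sets above the filter. Of these 2 had a higher and 3 a lower mean, and the groups overlapped in all 5. Probe set 200638_s_at was at 11.36 and 10.95 on the siLSD1 arrays, against 11.23 and 11.28 on the siControl arrays, a difference of -0.10. Probe set 200640_at was at 11.00 and 10.89 on the siLSD1 arrays, against 11.10 and 10.96 on the siControl arrays, a difference of -0.09. Both differences were smaller than the spread within the groups, and both turned positive under median centring (0.0057 and 0.04). Probe set 200639_s_at gave 10.96 and 10.98 on the siLSD1 arrays, against 11.04 and 10.81 on the siControl arrays, a difference of 0.04 (-0.01 under the deposited scaling).

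The 1 bright YWHAZ probe set that stood apart was 200641_s_at. It had a signal of 10.28 and 9.45 on the siLSD1 arrays, against 10.23 and 10.71 on the siControl arrays. As with YWHAE 210317_s_at, siLSD1 replicate 2 was the lowest of the 4 arrays, while siLSD1 replicate 1 lay within the siControl range. The difference was -0.60, with an interval from -1.25 to 0.04, and it was -0.19 without siLSD1 replicate 2. On siLSD1 replicate 2 relative to siLSD1 replicate 1, this probe set differed by -0.82 and YWHAE 210317_s_at by -1.17. Of the 7192 probe sets with a mean signal of 8 or more, 1.57% were at least 0.82 lower on siLSD1 replicate 2 than on siLSD1 replicate 1, and 0.403% at least 1.17 lower. The dim probe set 214848_at had 5.17 and 5.26 on the siLSD1 arrays, against 5.57 and 4.73 on the siControl arrays, a difference of 0.06 that turned to -0.36 without siControl replicate 2.

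YWHAB, a close relative of YWHAZ that also binds RAF kinases, had a higher mean in siLSD1 cells in 3 of 3 probe sets. Probe set 217718_s_at had 10.87 and 10.90 on the siLSD1 arrays, against 10.77 and 10.72 on the siControl arrays. Its groups did not overlap, and its difference was 0.14 with an interval from -0.08 to 0.35. Probe set 208743_s_at had 10.02 and 10.03 on the siLSD1 arrays, against 9.78 and 10.04 on the siControl arrays. There siControl replicate 1 was the low array, and the difference of 0.11 turned to -0.01 without it. Probe set 217717_s_at had 9.91 and 9.52 on the siLSD1 arrays, against 9.44 and 9.56 on the siControl arrays, and its difference of 0.22 was 0.02 without siLSD1 replicate 1. The YWHAB differences thus lay within 0.10 of each other. YWHAQ and YWHAZ, the other members with at least 3 probe sets above the filter, had ranges of 0.36 and 0.67. The 2 SFN probe sets above it lay 0.03 apart. With 1 array left out, the YWHAB differences ran from -0.01 to 0.41.

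YWHAG, an isoform of neurons and muscle whose variants cause a childhood epilepsy, had a single probe set, 222985_at. Its signal was 11.93 and 11.89 on the siLSD1 arrays, against 11.92 and 11.84 on the siControl arrays. The 4 arrays lay closely together, the groups overlapped, and the difference was 0.03 with an interval from -0.12 to 0.19 (-0.06 under the deposited scaling). The upper limit corresponds to 1.14-fold, so a doubling of the YWHAG signal lay outside the interval.

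YWHAH, an isoform known from brain, had 3 probe sets, of which 2 passed the filter. The bright one, 201020_at, had 8.70 and 8.63 on the siLSD1 arrays, against 8.81 and 8.86 on the siControl arrays. Both siLSD1 arrays were below both siControl arrays, the only such case among the 18, with a difference of -0.17 and an interval from -0.58 to 0.24. The sign turned under median centring (0.03). The dim one, 242325_at, had 5.19 and 4.20 on the siLSD1 arrays, against 2.26 and 3.96 on the siControl arrays. It gave the largest difference of the family, 1.58, but the probe set passed only through its siLSD1 mean of 4.70, against a siControl mean of 3.11, below the filter level of 3.26. The size of this difference and its rank are therefore uncertain. Without siControl replicate 1 it was 0.74, and the interval with all arrays ran from 0.0020 to 3.17. Probe set 236559_at stayed below the filter with 2.60 and 1.48 on the siLSD1 arrays, against 2.16 and 2.22 on the siControl arrays.

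YWHAQ, first described in T cells and widely expressed, had 3 bright probe sets. Probe set 200693_at had 12.16 and 12.14 on the siLSD1 arrays, against 12.18 and 12.14 on the siControl arrays, a difference of -0.0092 with an interval from -0.14 to 0.12. Probe set 213699_s_at had 11.95 and 12.04 on the siLSD1 arrays, against 12.07 and 12.00 on the siControl arrays, a difference of -0.04. Both sat level across the arrays, and the sign of both turned under median centring. Probe set 212426_s_at had 11.90 and 12.01 on the siLSD1 arrays, against 11.49 and 11.78 on the siControl arrays. Its groups did not overlap, and siControl replicate 1 was again the lowest array. The difference was 0.32 with an interval from 0.08 to 0.56, or 1.25-fold, and it was 0.18 without siControl replicate 1. RefSeq lists 10 YWHAQ, 10 YWHAZ and 2 YWHAB pseudogenes, so the _s_at values of these genes carry the same uncertainty as those of YWHAE.

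SFN, the isoform of epithelia that p53 induces and that restrains entry into mitosis, had 3 probe sets, of which 2 passed the filter. Probe set 209260_at lay below the filter with 1.89 and 1.93 on the siLSD1 arrays, against 1.56 and 1.29 on the siControl arrays. Values this low are not ranked. Probe set 33322_i_at had 6.20 and 6.40 on the siLSD1 arrays, against 6.84 and 6.10 on the siControl arrays, a difference of -0.17 that turned to 0.20 without siControl replicate 1 and to 0.02 under median centring. Probe set 33323_r_at had 4.57 and 4.09 on the siLSD1 arrays, against 4.64 and 4.42 on the siControl arrays, a difference of -0.20 that turned to 0.04 without siLSD1 replicate 2 and was -0.44 without siLSD1 replicate 1. The groups overlapped in both. The last suffixes mark probe sets for which the array's designers relaxed the usual rules for choosing probes. Of the 6 measured epithelial markers, KRT5, KRT14, KRT19 and CDH1 were below the filter, and EPCAM (mean 4.27) and CDH3 (mean 3.60) were above it. The summed signal of the 6 markers (base-2 antilogs) was 34.6 and 52.8 on the siLSD1 arrays, against 73.1 and 41.3 on the siControl arrays. That sum was highest on siControl replicate 1, as was 33322_i_at, but there it rested on 1 gene, CDH3, with a signal of 5.77, and CDH1 and KRT5 were at their lowest on that array. The sum is therefore no measure of epithelial markers as a group, and its part in the SFN values was not tested.

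**Figure D3:**
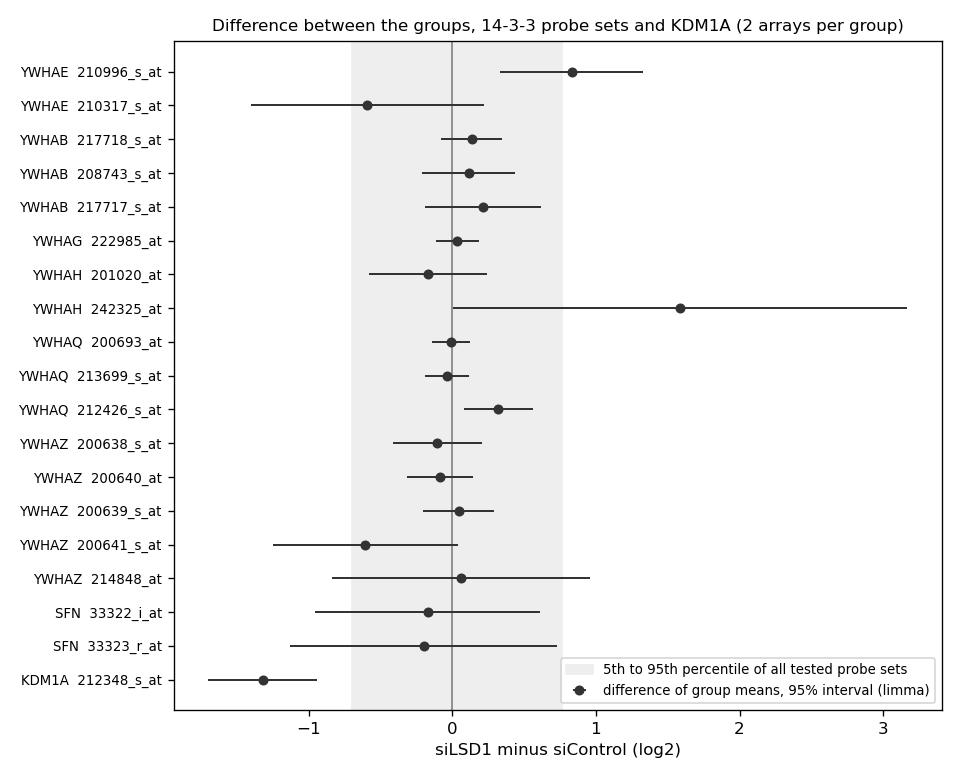
Difference of group means (siLSD1 minus siControl, log2) with its 95% interval from limma for the 18 probe sets of 14-3-3 genes above the filter and for KDM1A, 2 arrays per group; the grey band spans the 5th to the 95th percentile of all tested probe sets (-0.70 to 0.76). YWHAE 210996_s_at (0.83) and YWHAH 242325_at (1.58, with a siControl mean below the filter) lie to the right of the band and KDM1A (-1.32) to its left, and the other 16 points lie inside it.

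**Figure D4:**
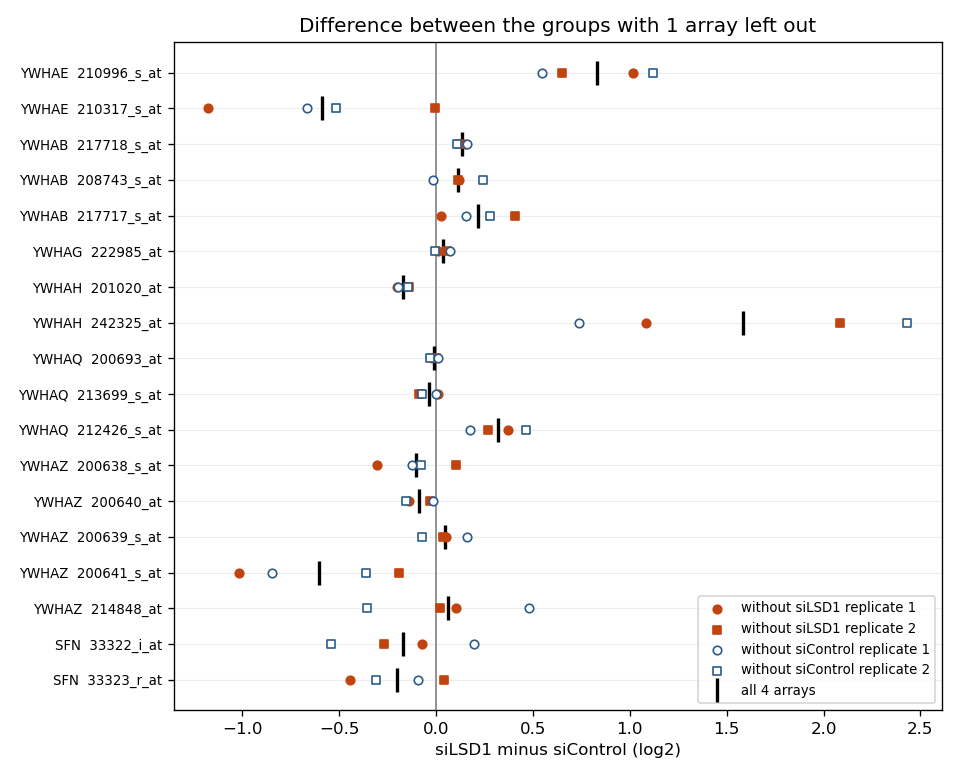
The same difference for the 18 probe sets with all 4 arrays (black bars) and with 1 array left out (filled symbols for a siLSD1 array, open ones for a siControl array, circles for replicate 1, squares for replicate 2). YWHAE 210996_s_at, the value that chose the family, lies between 0.55 and 1.12. YWHAE 210317_s_at runs from -1.17 to -0.0070 depending on which siLSD1 array is left out.

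Clients and regulators of 14-3-3 proteins were then described from a list of 76 genes compiled from general knowledge of the family. Of these 71 had a probe set of their own and 65 passed the filter by their brightest one. In limma 0 of the 65 passed in either direction, and 1 had an unadjusted p under 0.05, where 3.45% of all tested probe sets had one. Their mean was higher in siLSD1 cells for 44 and lower for 21, where 50.1% of all tested probe sets were higher. That share is over every tested probe set, while each partner is counted by its brightest one. No lean is therefore read from these counts or those below. The median difference of the partners was 0.13. That median was 0.08 without siLSD1 replicate 2 and 0.04 when all probe sets of a gene were averaged. Transcription factors and cofactors among the partners were higher in 11 cases and lower in 4 (median difference 0.33). Neuronal and cytoskeletal clients had 11 higher and 3 lower (median 0.17), cell cycle and death clients 7 and 2 (0.13), kinases 10 and 6 (0.05), and metabolic clients 5 and 6 (-0.02).

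None of the named partners that were tested passed. ADD2, beta-adducin of the membrane skeleton, was the 1 partner with an unadjusted p under 0.05 in limma (0.0273, adjusted p 0.986). Of all tested probe sets, 3.45% had such a p, so nothing is read from it. The ADD2 signal was 7.92 and 8.24 on the siLSD1 arrays, against 7.19 and 7.56 on the siControl arrays, a difference of 0.70. NDEL1, the dynein regulator that YWHAE protects, had overlapping groups and a difference of 0.24 with an interval from -0.44 to 0.92. PAFAH1B1, the lissencephaly gene that works with NDEL1, had a difference of 0.08 with an interval from -0.26 to 0.42. YAP1, the Hippo pathway coactivator, had 7.14 and 7.30 on the siLSD1 arrays, against 6.87 and 6.73 on the siControl arrays, without overlap and with a difference of 0.42 (interval -0.18 to 1.02).

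The transcription factor FOXO3 had a difference of -0.06 (interval -0.36 to 0.24), and the histone deacetylase HDAC4 one of 0.44 (interval -0.41 to 1.29). CRTC1, a coactivator of CREB, had the largest negative difference of the named partners, -0.98 (interval -2.06 to 0.09). Of the mitotic phosphatases, CDC25B had 0.31 (interval -0.08 to 0.70) and CDC25C 0.13 (interval -0.46 to 0.73). The death promoter BAD had a difference of 0.05 (interval -0.63 to 0.73), and the growth inhibitor TSC2 one of 0.52 (interval -0.22 to 1.26). The array siControl replicate 1, which stood apart, was the lowest for HDAC4 (6.42) and TSC2 (7.23). For CRTC1 it was the highest (6.56). Among cytoskeletal proteins, tau (MAPT) had 0.25 (interval -0.39 to 0.88) and cofilin (CFL1) 0.19 (interval -0.02 to 0.40). TH had -0.83 and 3.16 on the siLSD1 arrays, against 0.33 and 0.65 on the siControl arrays, all below the filter level.

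The genes with the profile most like that of YWHAE 210996_s_at were taken from 12762 genes by the smallest Euclidean distance between deviations from the own mean over the 4 arrays. They were PMM1, a phosphomannomutase (distance 0.13), CTDSPL, a small phosphatase (0.13), KMT2C, a histone methyltransferase (0.14), ZNF677, a zinc finger protein (0.15), and LHFPL6, a membrane protein (0.15). All 5 had siControl replicate 1 as their lowest array, as YWHAE 210996_s_at did, which follows from the choice by likeness. With 4 arrays this likeness is a description of these arrays only.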

How the data were processed

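Signals were measured on 4 Affymetrix arrays, 2 per siRNA. The authors deposited 1 log2 value per probe set and array; the scale was found from the values, since the trimmed mean of the base-2 antilogs was 100.0 on every array. The summary method was not stated. Names came from the platform annotation of 2016, and all 20 of the 14-3-3 family kept their symbols in RefSeq's gene names. Control probe sets were left out, the other values were quantile normalized, which removes any difference in overall signal, and probe sets with a mean below the 40th percentile (3.26) were not tested. The comparison used limma 3.58.1 in R 4.3.3 (mean-variance trend, two-sided, no replicate term, Benjamini-Hochberg adjustment over 32768 probe sets, threshold 0.05). The fit was run on simulated data whose arrays shared a common spread for each probe set. An array that stands apart, as siControl replicate 1 did, was not simulated. Deposited scaling, median centring, no filter, no trend, gene-level values, a replicate block and leaving out each array were the alternatives. The number of arrays limits the precision, and the smallest p of an exact permutation test over the arrays is 0.333. Members, lists and motifs were chosen with earlier results of these data known.

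KDM1A and every 14-3-3 probe set were to be named, with 13 partners picked by role (2 of them had no probe set of a single symbol), the 4 partners with the smallest p, and the 5 genes whose profiles were nearest to YWHAE. Promoter sequences are RefSeq's, for GRCh38.p14.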

Additional observations from a re-analysis of the deposited data

How the results depend on the processing

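The number of 14-3-3 probe sets with a higher mean varied from 6 to 12 of 18 when 1 array was left out. The sign of the difference held under all 9 alternatives run for 7 of the 18 and turned under at least 1 for 11. Of the 9, no filter, no trend and the replicate block cannot alter a difference of means, so they could turn no sign. YWHAE 210996_s_at, the value that chose the family, ran from 0.55 to 1.12. Its groups did not overlap, so leaving out 1 array could not turn its sign, and nothing is read from this. The YWHAE value was 0.12 when its probe sets were averaged, which follows from the opposite sign of the second one. The median of the 14-3-3 probe sets was -0.0775 under the deposited scaling and 0.0962 under median centring, under which the median of all tested probe sets was 0.15, and it ran from -0.0741 to 0.0423 with 1 array left out. The partners' median was 0.27 under median centring and 0.0409 with averaged probe sets, and 0.08 to 0.20 with 1 array left out. The count of probe sets called was 0 under the alternatives that kept all 4 arrays. Leaving out 1 array left its group with a single array and no spread of its own, so no calls from those fits are given. Without siControl replicate 2 the only control was siControl replicate 1, the array that stood apart. The tRNA synthetase gene RARS1 (201330_at) then had a difference of 3.58, and the cause was not tested. KDM1A ran from -1.39 to -1.14 over its alternatives. Its adjusted p values in limma ran from 0.394 to 0.980 over the alternatives that kept all 4 arrays. Deviations of same-numbered arrays correlated at -0.04 over 32768 probe sets, which neither shows nor excludes a pairing by replicate number. With the replicate number as a block limma called 0 probe sets (1418 at an unadjusted p under 0.05). The block cannot change a difference of group means in this balanced design. The YWHAE difference of 0.83, KDM1A at -1.32, the 14-3-3 median of 0.01 and the partners' median of 0.13 were therefore the same by construction.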
